A study of Mus musculus with 12 samples.

Results

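Chromatin regions that carried an ATAC-seq peak in both Aire-knockout libraries and in both Aire C442G heterozygote libraries, and in none of the 4 wild-type libraries of those contrasts, are described here. Peaks of all 12 lists on chromosomes 1 to 19 were merged wherever they overlapped, which gave 222625 regions, and 1945 of them (0.874%) met this rule. Membership is therefore defined by these 8 libraries, and presence in them is a description and not a test.

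The libraries came from mature medullary thymic epithelial cells (mTEChi) sorted from the thymus of C57BL/6 mice aged 4 to 7 weeks. The mutant genotypes were the knockout (Aire -/-), heterozygotes for the AIRE change C442G (Aire +/C442G) and heterozygotes for C313Y (Aire +/C313Y), and each had its own pair of Aire +/+ wild types, with 2 libraries in each of the 6 groups. The labels do not say whether the libraries of a group came from separate animals, so the spread between them may be technical, and each wild-type pair was assigned to its mutant by the form of the titles. The heterozygotes retain 1 unchanged Aire allele, and the knockout has none. As a check of the sorted cell type, 8 of 14 mTEChi genes had peaks at a gene end (1 kb to either side) in all 12 libraries, as had 5 of 8 cortical thymic epithelial genes, 2 of 10 dendritic cell and macrophage genes, 1 of 14 thymocyte and T cell genes and 0 of 6 B cell, 7 fibroblast and 8 endothelial genes. These counts do not separate medullary from cortical epithelium.

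AIRE is a nuclear protein of these cells that promotes the expression of many genes otherwise restricted to peripheral tissues, so that developing T cells meet self-antigens in the thymus. Its loss causes multi-organ autoimmunity, and missense changes in its zinc-binding PHD fingers can act dominantly over the unchanged copy. ATAC-seq marks DNA that a transposase can reach, and a peak is a stretch where insertions exceed the local background. In such bulk lists a site open in more cells and a site more open in each cell cannot be told apart.

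The RefSeq table for GRCm38.p6 gave 31365 promoter windows, each 250 bases before to 50 after an annotated start. Of the 1945 regions, 37 (1.90%) reached a window, and they lay over 41 windows (0.131%). The share of other regions that reach a window was not computed. The sequences below are the 250 upstream bases of 5 of the 41 windows, 5′ to 3′ on the gene's strand, with capitals for the bases inside the gained region. Sult1a1, Tmem181a and Pex16 are shown because theirs were the strongest protein-coding windows in the list. Pdcd1lg2 and Mcidas were chosen for their roles after their values were seen. Sult1a1, a phenol sulfotransferase, has its window at chr7:126676369-126676668 on the minus strand. Tmem181a, which encodes a membrane protein, has its window at chr17:6270220-6270519 on the plus strand, and the annotation lists related pseudogenes (Tmem181b-ps, Tmem181c-ps) on the same chromosome, so reads there may have been split between copies. Pex16, a peroxisome assembly factor, has its window at chr2:92374426-92374725 on the plus strand. Pdcd1lg2 encodes the PD-1 ligand PD-L2, with its window at chr19:29410669-29410968 on the plus strand. Mcidas, a regulator of multiciliated cell differentiation, has its window at chr13:112993618-112993917 on the plus strand.
Sult1a1: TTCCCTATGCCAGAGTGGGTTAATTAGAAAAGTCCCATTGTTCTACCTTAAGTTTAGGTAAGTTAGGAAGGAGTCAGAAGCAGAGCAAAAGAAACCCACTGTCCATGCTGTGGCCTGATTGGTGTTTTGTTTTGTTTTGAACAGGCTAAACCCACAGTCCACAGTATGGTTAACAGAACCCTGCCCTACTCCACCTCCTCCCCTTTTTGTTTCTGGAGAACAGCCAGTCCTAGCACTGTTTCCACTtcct
Tmem181a: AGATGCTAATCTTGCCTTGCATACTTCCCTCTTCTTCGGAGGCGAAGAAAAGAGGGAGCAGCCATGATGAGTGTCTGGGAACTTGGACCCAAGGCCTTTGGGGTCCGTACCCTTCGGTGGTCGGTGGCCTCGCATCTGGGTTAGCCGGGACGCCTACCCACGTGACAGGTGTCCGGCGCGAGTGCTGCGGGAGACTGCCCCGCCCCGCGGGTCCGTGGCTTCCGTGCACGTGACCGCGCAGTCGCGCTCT
Pex16: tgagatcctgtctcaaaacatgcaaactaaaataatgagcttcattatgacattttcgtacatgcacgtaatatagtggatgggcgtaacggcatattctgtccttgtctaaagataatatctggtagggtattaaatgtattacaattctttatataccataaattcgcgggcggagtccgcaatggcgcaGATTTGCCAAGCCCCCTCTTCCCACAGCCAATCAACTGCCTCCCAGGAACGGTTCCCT
Pdcd1lg2: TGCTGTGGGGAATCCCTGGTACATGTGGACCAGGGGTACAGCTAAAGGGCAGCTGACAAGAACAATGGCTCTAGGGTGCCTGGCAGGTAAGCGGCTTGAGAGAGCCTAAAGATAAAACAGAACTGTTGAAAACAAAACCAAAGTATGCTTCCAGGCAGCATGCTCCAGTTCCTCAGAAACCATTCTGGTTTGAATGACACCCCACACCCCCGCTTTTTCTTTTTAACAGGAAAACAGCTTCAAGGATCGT
Mcidas: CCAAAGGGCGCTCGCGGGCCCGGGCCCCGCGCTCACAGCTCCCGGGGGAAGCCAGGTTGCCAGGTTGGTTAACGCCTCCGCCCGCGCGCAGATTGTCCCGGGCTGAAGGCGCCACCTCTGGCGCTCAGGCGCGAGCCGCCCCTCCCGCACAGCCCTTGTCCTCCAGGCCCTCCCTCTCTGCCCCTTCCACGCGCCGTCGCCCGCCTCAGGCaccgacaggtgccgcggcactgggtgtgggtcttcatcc

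The region over the Sult1a1 window (126676423 to 126676854) covered 246 of the 300 bases, and the authors' fold enrichments were 5.02 and 4.83 in the knockout lists and 4.14 and 4.80 in the C442G lists. It was also called in 1 C313Y-set wild type and in no C313Y heterozygote. At Tmem181a the region spanned 1078 bp, the whole window, and it was also called in all 4 libraries of the C313Y set. At Pex16 it was 94 bp wide and was called in no C313Y-set library. The Pdcd1lg2 region (29410624 to 29411130) had folds of 4.37 and 4.59 in the knockout lists and 3.01 and 3.58 in the C442G lists, and it was called in 1 of 2 C313Y heterozygotes and in neither of their wild types. The weakest of the 5 was Mcidas, whose −log10 q was 2.42 and 1.49 in the knockout lists and 1.20 and 1.33 in the C442G lists, just above the lowest value that the lists hold. It too was called in 1 of 2 C313Y heterozygotes and in neither of their wild types.

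Letters of 11 transcription factor motifs were searched on both strands of the 300-base windows. The AP-1 letters TGANTCA were found in 6 of the 41 windows over gained regions (14.6%) against 7.85% of all windows. The KLF/SP letters GGGNGGG were in 20 (48.8%) against 48.4%, the CTCF letters AGGNGGC in 13 (31.7%) against 29.4% and the ETS letters CCGGAAG in 3 (7.32%) against 9.0%. The TEAD letters GGAATG were in 4 (9.76%) against 14.6%. The NF-kB motif was in 0 of 41 against 0.418%, and the grainyhead letters AACNGGTT in 0 against 2.08%. Among the remaining 4, forkhead TGTTTAC was in 2 windows (4.88% against 3.71%), and the IRF motif, RUNX TGTGGTT and octamer ATGCAAA were in 1 each (2.44% against 3.45%, 5.32% and 4.68%). Some windows belong to the same or neighbouring genes, and KLF/SP and CTCF letters can overlap. Median GC content was 54.3% in these windows and 53.0% in all. No test was run on these shares, and the other gained regions could not be searched because no genome sequence was used.

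The gained regions were a minority of what each mutant gained on its own. The knockout had gained 24922 regions (11.2% of all regions) and the C442G heterozygotes 11200 (5.03%), so the shared 1945 made up 7.80% of the knockout gains and 17.4% of the C442G gains. Most knockout gains were not closed in other wild types: 16190 (65.0%) had a peak in both C442G-set wild types, 4893 (19.6%) in 1 and 3839 (15.4%) in neither. Of those 3839, 1945 (50.7%) had a peak in both C442G heterozygotes and 779 (20.3%) in neither. Among the 33810 such regions called in 1 knockout library 10.4% were called in both C442G heterozygotes, and among the 67217 called in no knockout library 8.01% were. Of those 67217, 33521 were called in the C313Y set alone, so that only 33696 had a peak in any C442G heterozygote. Among regions with a peak in at least 1 C442G heterozygote, the share called in both was 63.6% where both knockout libraries had a peak, 40.7% where 1 had and 16.0% where neither had. These libraries define the rule, so the shares are a description. Peaks in the C313Y-set wild types also rose with knockout calls. In regions called in both C442G heterozygotes, wild-type replicate 1 had 8.08%, 10.1% and 12.3% with 0, 1 and 2 knockout libraries called. Wild-type replicate 2 had 4.92%, 7.60% and 8.38%. Losses in either contrast were few, with 96 of 222625 regions lost in the knockout and 1563 with C442G. Beside these totals, 1 region was lost in both contrasts, 55 were gained in the knockout and lost with C442G, and 1 was the reverse. The knockout-set wild types had much shorter lists than the knockout, and the part of this in the few losses was not tested.

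**Figure D1:**
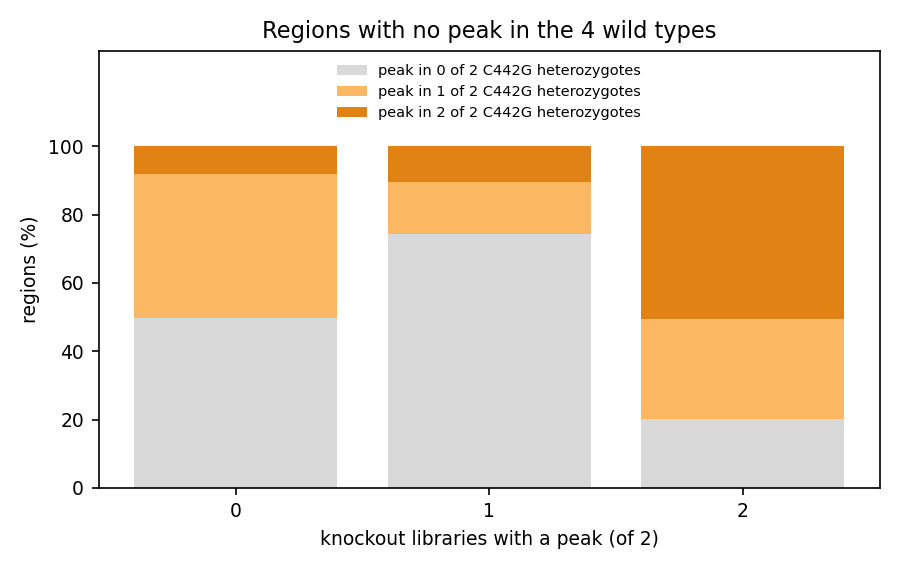
Regions with no peak in the 4 wild types, grouped by how many of the 2 knockout libraries had a peak (horizontal axis); each stacked bar divides the group, in percent, by the number of C442G heterozygotes with a peak. The share called in both heterozygotes was 50.7% where both knockout libraries had a peak and 8.01% where neither had one. The bar where neither had one includes 33521 regions called in the C313Y set alone, and without them its share was 16.0%. These libraries define the rule, so the shares are a description.

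List length differed between mutants and wild types and moves with these counts. The knockout lists held 84037 and 93198 peaks against 33933 and 33502 in their wild types, and the C442G lists 120031 and 112808 against 91851 and 92618. No read counts were used, so the depth behind each list is unknown, and an absent peak means one not called at that depth. When each list was shortened to its strongest peaks, 33502 per list in the knockout contrast and 91851 in the C442G contrast, 68 of the 1945 regions (3.50%) still met the rule, and 14 regions met the reverse rule against 1 before. When all 8 lists were shortened to 33502 peaks, 180 regions met it, of which 7 were among the 1945, and 99 met the reverse.

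The choice was also made from 1 replicate and read in the other, so that the second was not used for choosing. Both replicates belong to the 8 libraries of the rule, and their lists differed in length as given above. The part of list length in the differences below was not tested. Replicate 1 alone gave 8524 regions. In replicate 2 these were called in 60.1% of cases in the knockout and 74.7% in the C442G heterozygote, against 3.98% in the knockout-set wild type and 43.1% in the C442G-set wild type. The difference between mutants and wild types was 43.9 percentage points (exact permutation test over 4 libraries, two-sided, p = 0.333, the smallest that 2 against 2 allows). Over all regions the same libraries had peaks in 40.5% and 49.7%, against 14.6% and 40.6%. Chosen from replicate 2 (10301 regions) and read in replicate 1, the values were 44.6% and 75.6%, against 2.79% and 37.8%, a difference of 39.8 points (exact permutation p = 0.333). The C442G-set wild types thus carried a peak in the regions chosen from 1 replicate about as often as in all regions, and the knockout-set wild types much less often.

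The C313Y set took no part in choosing the regions. Its lists hold positions only, and whether they were called at the same threshold as the other 8 is unknown, so the absence of a peak there may not mean the same as in the other sets. Heterozygote replicates 2 and 3 had a peak in 576 (29.6%) and 315 (16.2%) of the 1945 regions, against 240 (12.3%) and 163 (8.38%) in wild-type replicates 1 and 2. Both heterozygotes lay above both wild types. The means were 22.9 ± 9.49% in heterozygotes and 10.4 ± 2.80% in wild types (SD, n = 2 each), 2.21 times as many (exact permutation test, two-sided, p = 0.333, Benjamini-Hochberg adjusted p = 0.333 for the 2 measures), and this design cannot go lower. Over all 222625 regions the shares were 32.5% and 24.6% in heterozygotes against 31.6% and 24.1% in wild types, a ratio of 1.03 within the spread.

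**Figure D2:**
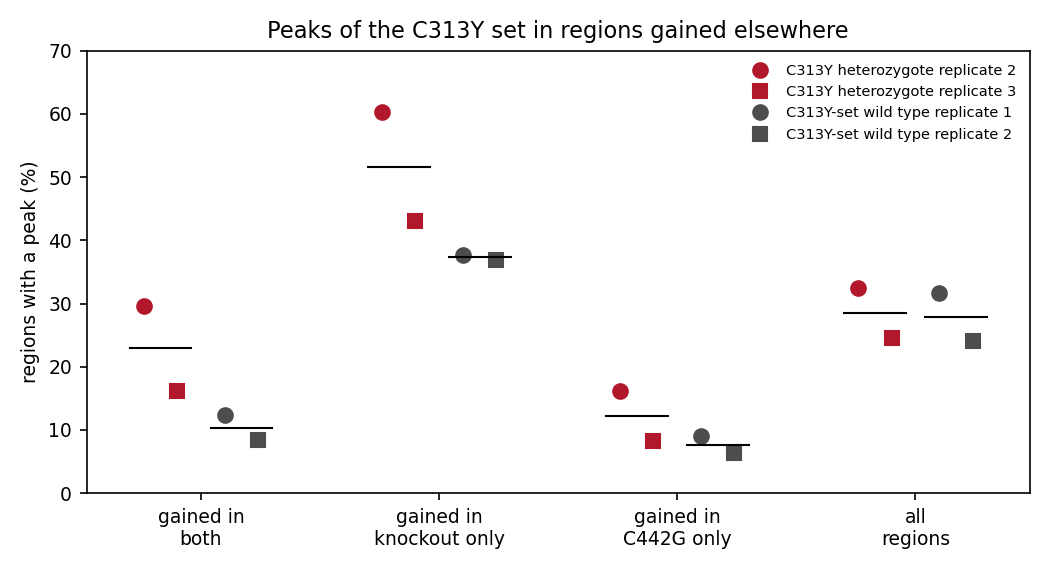
Percent of regions with a peak (vertical axis) in each C313Y heterozygote (red) and each wild type of that set (grey), for regions gained in both mutants, in the knockout only, with C442G only, and for all regions; symbols are libraries and black lines are means of 2. In the regions gained in both, the heterozygotes stood at 29.6% and 16.2% and the wild types at 12.3% and 8.38%, while over all regions the groups overlapped.

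The difference remained when lists of near-equal length were set side by side. Heterozygote replicate 2 called 1.03 times as many regions as wild-type replicate 1 and 2.40 times as many of the gained regions. For heterozygote replicate 3 against wild-type replicate 2 the ratios were 1.02 and 1.93. Per 1000 called regions the heterozygotes had 7.96 and 5.75 of the gained regions against 3.41 and 3.04 in the wild types, a difference of 3.63 (exact permutation p = 0.333, adjusted p = 0.333). Wild-type replicate 1 stood apart, since 28.8% of its regions were called in no library of the other contrasts, against 11.5% and 9.07% in the heterozygotes and 11.7% in the other wild type. Per 1000 regions that were also called in another contrast, a measure added after seeing the data, the values were 8.99 and 6.32 against 4.79 and 3.45.

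Other regions closed in the 4 wild types and called in at least 1 knockout or C442G library also had more peaks in the C313Y heterozygotes. The ratio of heterozygotes to wild types was 1.81 for those called in both knockout libraries and no C442G heterozygote, 1.85 for both knockout libraries and 1 heterozygote, and 1.83 for 1 knockout library and both heterozygotes, beside 2.21 for the shared gains. It was 1.34 for regions called in no knockout library and both C442G heterozygotes, and 1.66 for 1 knockout library and 1 C442G heterozygote. With 1 C442G heterozygote and no knockout library it was 1.18, and with 1 knockout library and no C442G heterozygote 1.17. It was 0.502 for the 33521 regions called in the C313Y set alone, of which wild-type replicate 1 called 60.5%. Regions gained in the knockout only were called in 60.2% and 43.0% in heterozygotes and 37.7% and 36.9% in wild types, a ratio of 1.38. For regions gained with C442G only the shares were 16.2% and 8.21% against 9.10% and 6.28%, a ratio of 1.59, and for regions open in all 8 libraries 1.04. Most knockout-only gains were open in C442G-set wild types. The difference between these ratios was not tested.

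Counted region by region, 113 of the 1945 (5.81%, 95% Wilson interval 4.85 to 6.94, counting error only) had a peak in both C313Y heterozygotes and in neither wild type, against a background of 2.32% of all regions. These 113 were open in 6 of 6 mutant and 0 of 6 wild-type libraries, but the rule had fixed the calls outside the C313Y set. The reverse held for 11 (0.566%, interval 0.316 to 1.01), against 0.719% of all regions. The imbalance was smaller with 1 wild type left out: 135 gains stood beside 102 losses without wild-type replicate 2, and 145 beside 58 without replicate 1. Both rules are then relaxed, and a loss needs a peak in only 1 wild type, so neither count can fall. Shares of all regions under these relaxed rules were not computed. Regions gained in the knockout only had 7.40% gained and 1.26% lost with C313Y, so the share of gains was not particular to the regions shared with C442G. Of the 1945 regions, 1099 (56.5%) had no peak in any C313Y-set library, against 48.5% of all regions. The share was 72.7% for C442G-only gains and 25.5% for knockout-only gains. A peak in all 4 was found in 27 (1.39%), against 13.9% of all regions. In all, 1595 (82.0%) had no peak in the C313Y-set wild types either, and so were closed in all 6 wild types of the series. No peak in the C313Y-set wild types was found in 60.8% of all regions, 86.5% of C442G-only gains and 47.3% of knockout-only gains. Both C313Y-set wild types had a peak in 53 (2.72%), against 16.5% of all regions. The 113 gained with C313Y had a median width of 299 bp and lay near gene ends in 3.54% of cases, while those 53 had 413 bp and 15.1%.

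The peaks that made up these regions were of modest strength in each list, by values that were part of the choice. Median fold enrichment as called by the authors was 3.67 and 3.81 in the knockout lists and 3.88 and 4.16 in the C442G lists, where all peaks of the same lists had 4.15, 4.22, 4.29 and 4.71. The highest fold of any gained region was 9.69. Each region's strength was taken as the lowest of its 4 percentiles by −log10 p, 1 per mutant list. This strength had a median of 18.4 (quartiles 9.59 to 29.8) and a maximum of 73.2, so 85 regions (4.37%) ranked in the upper part of all 4 lists, above the 50th percentile, and 0 above the 90th. The strongest peaks of the 4 libraries shared at least 1 bp in 1801 regions (92.6%), over a median of 70 bp. Across regions the mean knockout and mean C442G folds had a Spearman rho of 0.354, beside 0.286 between the knockout replicates and 0.403 between the C442G replicates (n = 1945, libraries shared by all points). The first value is between means of 2 libraries and the others between single libraries, so they are not directly comparable.

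**Figure D3:**
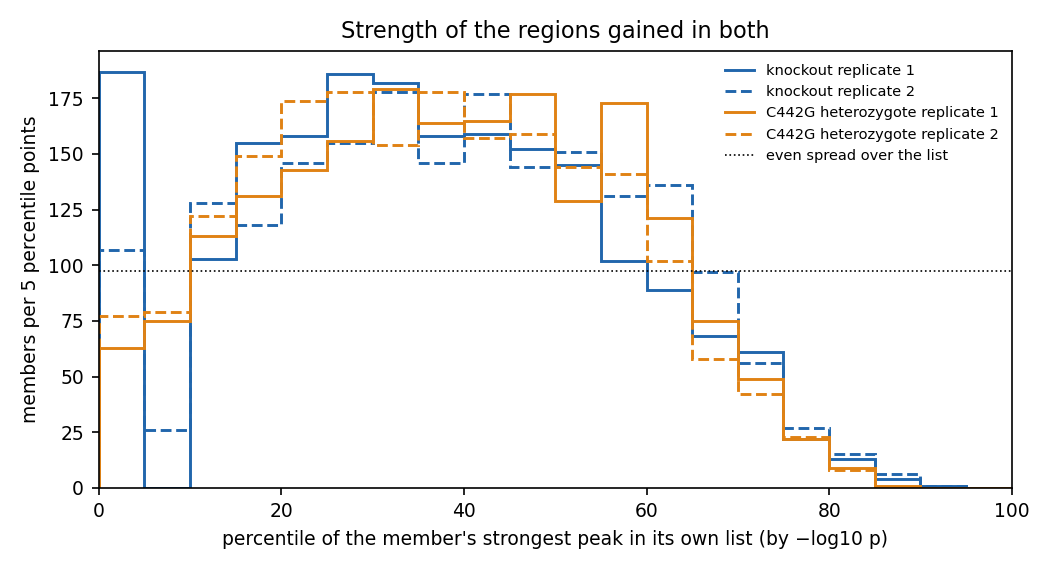
Number of gained regions (vertical axis) by the percentile of their strongest peak within its own list (horizontal axis, bins of 5 points), for both knockout and both C442G libraries; the dotted line is an even spread. Medians lay at 35.0 and 38.8 in the knockout lists and 38.6 and 36.0 in the C442G lists, and few regions lay above 80.

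The regions were divided by strength into 4 groups of 486 or 487. From the strongest group to the weakest, 41.4%, 36.6%, 37.4% and 28.0% had a peak in at least 1 C313Y heterozygote, against 17.3%, 21.0%, 18.5% and 15.2% in at least 1 wild type of that set. The heterozygotes were above the wild types in each group, with no steady order across the middle groups. The numbers gained with C313Y were 34, 34, 26 and 19 in these groups, strongest first.

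At the edge of the rule values were close on both sides. The weakest regions inside it were in Sun3, a spermatid nuclear envelope gene, with a lowest −log10 q of 1.02, in Igsf23 with 1.01, and near Dusp22, a phosphatase gene, also with 1.01. Outside it, 4012 regions had peaks in all 4 mutant libraries and in exactly 1 wild type. This wild type was a C442G-set library in 1784 and 2112 cases and a knockout-set library in 62 and 54. The lowest of these single wild-type peaks had −log10 q of 1.01 near Echdc3, 1.01 near Adam12 and 1.03 near Tle3.

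The strongest region lay inside Lyn, which encodes a Src-family kinase of B and myeloid cells, at chr4:3715667-3715911. Its folds were 6.04 and 7.07 in the knockout lists and 8.78 and 6.90 in the C442G lists, and it was called in no C313Y-set library. The next lay 74592 bp from Elavl4, a neuronal RNA-binding protein gene, at chr4:110129056-110129145, with folds of 5.80 and 6.48 in the knockout lists and 6.48 and 9.26 in the C442G lists. This 90 bp region was also called in both C313Y heterozygotes and in neither of their wild types. The third, 100915 bp from the Polycomb component gene Rybp, had folds of 5.55 and 6.11 in the knockout lists and 6.50 and 6.83 in the C442G lists and no peak in the C313Y set.

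Further regions of the first 20 by strength lay at genes of varied function. Those inside genes were in Kdm4d, a histone demethylase, Ahi1, a ciliary protein, Scel, a component of the cornified envelope, Adam23, a neuronal surface protein, Nr3c1, the glucocorticoid receptor, Dvl2, a Wnt pathway protein, Gdpd4 and 4921528I07Rik. The Adam23 region had the highest knockout fold of the 20, at 9.23 and 8.11 against 7.01 and 6.14 in the C442G lists, and it was called in both C313Y heterozygotes and 1 of their wild types. The Scel region had 5.56 and 6.40 in the knockout lists and 5.79 and 7.39 in the C442G lists and was called in 1 C313Y-set wild type and no heterozygote. The 4921528I07Rik region and one 53534 bp from Trim42 were called in all 4 C313Y-set libraries. Between genes or near gene ends lay those of Ceacam16, a protein of the inner ear, Cylc2, a sperm head protein, Bche, a cholinesterase, Mat2b, Zdhhc25, the prolyl hydroxylase Egln3, the lipid kinase Dgki and the splicing factor Srsf3.

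Besides the Elavl4 region, the strongest that were also gained with C313Y lay in Ahctf1, a nuclear pore gene, in Med23, a Mediator subunit, 18838 bp from Ift22, a gene of intraflagellar transport, and in Cfap61, a gene of sperm flagella. The Ahctf1 region had folds of 5.14 and 4.77 in the knockout lists and 5.99 and 7.73 in the C442G lists. The Med23 region had 5.56 and 6.47 in the knockout lists and 5.13 and 6.97 in the C442G lists. A further one, singled out after its values were seen, lay on chromosome 10 at 78088414 to 78088596, 8.89 kb beyond Icosl, which encodes the ligand of the T cell costimulator ICOS, and 44.8 kb from Aire. Its folds were 4.21 and 4.82 in the knockout lists and 4.36 and 3.98 in the C442G lists, its strength of 57.1 was among the higher ones, and it met the rule with lists of equal length. It was called in both C313Y heterozygotes and in neither of their wild types, as were 113 of the 1945 regions. The rule had fixed its calls in the other 8 libraries. The next gained region on that chromosome was 1387 kb from Aire.

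In the 68 regions that met the rule with lists of equal length, C313Y heterozygotes had a peak in 28 (41.2%) and 19 (27.9%), against 9 (13.2%) and 6 (8.82%) in their wild types. Both heterozygotes again lay above both wild types. Of the 68, 7 were gained with C313Y, 0 were lost and 31 had no peak in that set. Their median strength was 55.1.

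By position, the gained regions lay away from gene ends. Within 1 kb of an annotated end of a protein-coding gene lay 100 of them (5.14%, Wilson interval 4.25 to 6.21), inside genes 1065 (54.8%) and between genes 780 (40.1%). Regions gained in the knockout only had 7.54% near gene ends, those gained with C442G only 4.68%, all regions 9.75% and regions open in all 8 libraries 44.8%. More than 200 kb from any gene lay 152 (7.81%), against 5.27%, 7.46%, 6.74% and 1.74% in the same 4 groups. The median distance to a region open in all 4 wild types was 29860 bp, against 23168 bp for knockout-only gains and 27158 bp for C442G-only gains. From a gained region to the nearest other one the median distance was 282990 bp, and 77 (3.96%) lay within 10 kb of another. This spacing depends on the number of regions and was not compared with random placement. Per 1000 regions the gained ones numbered from 6.96 on chromosome 7 to 11.0 on chromosome 1, which held 182.

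Merged width had a median of 264 bp (quartiles 179 to 388, range 76 to 1327). It lay between the medians of knockout-only gains (312 bp) and C442G-only gains (189 bp), while regions open in all 8 libraries had 577 bp and all regions 167 bp. A merged region can only widen with each list that has a peak there. Within a single list the peaks of the gained regions were narrower than its peaks in general, with medians of 114 and 129 bp in the knockout lists (all peaks, 141 and 148 bp) and 151 and 145 bp in the C442G lists (175 and 175 bp). Among the widest were those with Cables1 (1327 bp), Clcf1, a cytokine gene (1138 bp), Cd200, which encodes a surface protein that restrains myeloid cells (1104 bp), and Ogfrl1 (1104 bp) as their nearest genes. The Cd200 region (chr16:45389461-45390564) had folds of 3.41 and 3.22 in the knockout lists and 4.06 and 4.13 in the C442G lists and was called in 1 C313Y heterozygote and no wild type. Its strongest peaks in the mutant lists shared 0 bp. None of these 4 wide regions was strong, with strengths from 2.14 to 17.2.

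**Figure D4:**
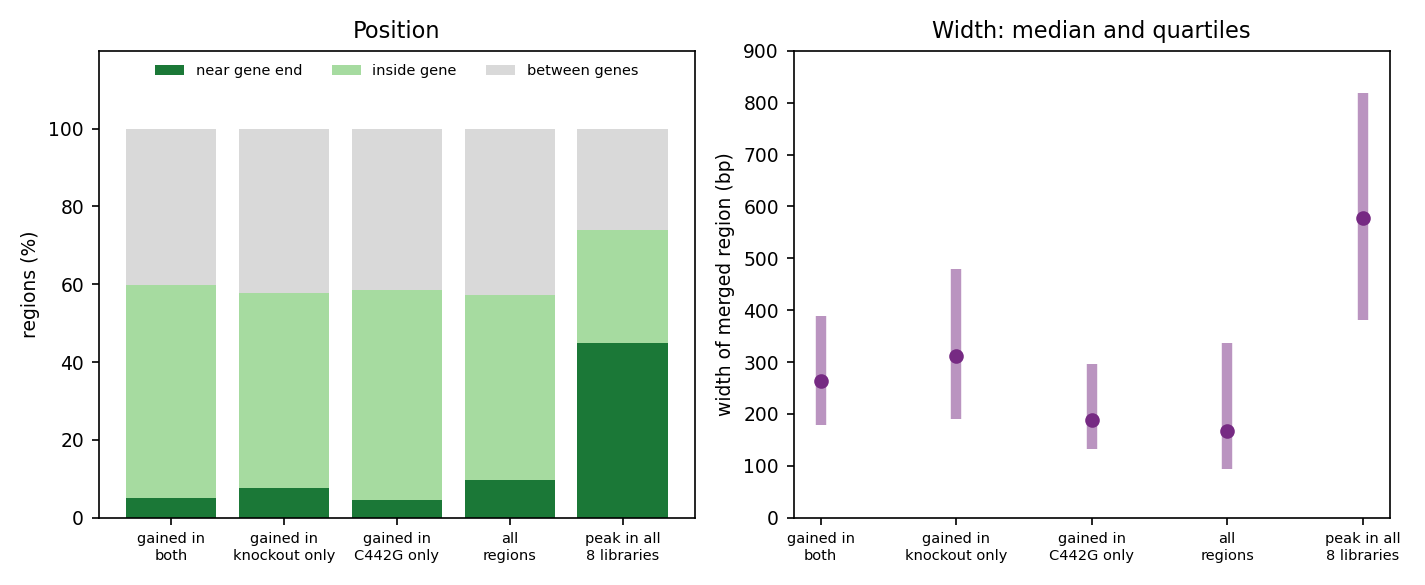
Left, the percent of regions near a gene end (within 1 kb), inside a gene and between genes; right, the median width in bp (points) with quartiles (bars), for regions gained in both mutants, in one only, all regions and those open in all 8 libraries. Gained regions had 5.14% near gene ends, against 44.8% of regions open in all 8 libraries, and a median width of 264 bp against 577 bp.

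The strongest regions near gene ends were, after Ceacam16 and Dgki, those of Mustn1, a musculoskeletal gene, Lmx1b, a homeobox gene of limb and neurons, and Lman2, a lectin of the secretory pathway. The Mustn1 region had folds of 5.53 and 4.53 in the knockout lists and 8.43 and 5.55 in the C442G lists and no peak in the C313Y set. The Lmx1b and Lman2 regions were called in both C313Y-set wild types, as was that inside Eif3b, a translation initiation factor gene. The strongest regions over 200 kb from any gene had as their nearest genes Cylc2 (343773 bp away), Mat2b (382835 bp), Gm46911 (528342 bp), Ccser2 (258229 bp) and the adhesion gene Kirrel3 (719278 bp).

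Of 20661 protein-coding genes, 1021 (4.94%) had a gained region in the gene or within 1 kb of it, 896 of them with 1, 97 with 2 and 28 with 3 or more. These genes were long, with a median of 98.7 kb against 17.5 kb for all. Counted once per region, genes holding the shared gains had a median length of 118 kb, those holding C442G-only gains 113 kb and those holding any region 95.1 kb. Genes over 500 kb held 140 (12.4%) of the shared gains that lay in or at a gene, 9.17% of knockout-only gains, 11.4% of C442G-only gains and 9.03% of all regions. Ptprn2, a receptor phosphatase of secretory granules and an islet autoantigen in humans, had the most, 6 of the 83 regions in its 792 kb. Genes with 4 were Dpyd, a pyrimidine-degrading enzyme, Klhl32, Lims1, an adaptor of focal adhesions, Myo3b, a myosin of hair cells, the polarity gene Pard3b, the protocadherin Pcdh7, the axon guidance receptor Robo2 and Tafa1. Lims1, the shortest of these at 101 kb, held 4 among 33 regions. The first gene with 3, in alphabetical order, was 1700025G04Rik.

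Genes of thymic epithelium and of AIRE function were read from lists against the 4.94% over all genes, and each of these lists held 0 or 1 of them. None of 14 mTEChi identity and antigen presentation genes had a gained region, nor any of 14 NF-kB pathway genes, 10 tuft cell, 11 corneocyte-like and 13 other mimetic lineage genes. The thymic epithelial transcription factors had 1 of 12, Eya1, a cofactor required for thymus formation, with folds of 3.36 and 3.50 in the knockout lists and 3.35 and 4.24 in the C442G lists. The Eya1 region was called in 1 C313Y-set wild type and in no C313Y heterozygote. Tissue antigens that AIRE induces had 1 of 17, the milk casein gene Csn2, whose region (chr5:87697622-87698091) had folds of 4.00 and 4.70 in the knockout lists and 4.46 and 4.84 in the C442G lists and was called in 1 C313Y heterozygote. Autoantigens of AIRE deficiency had 1 of 14, Gad2, the islet and neuronal glutamate decarboxylase, at a strength of 2.14. AIRE partner genes had 1 of 20, the chromatin remodeller Chd6. Counts of 0 or 1 in lists of this size lie near the share over all genes and are no result about any list.

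Marker genes of other thymic cells came to 3 of 53 (5.66%), near the share over all genes. Cortical epithelium had 1 of 8, the endocytic receptor Ly75, and dendritic cells and macrophages 1 of 10, the transcription factor Batf3, whose region was called in both C313Y heterozygotes and 1 of their wild types. Within the Batf3 region the strongest peaks of the knockout and C442G lists shared 0 bp. B cells had 1 of 6, Pax5, with 2 gained regions. Thymocytes and T cells had 0 of 14, fibroblasts 0 of 7, endothelium 0 of 8 and constitutively expressed genes 0 of 10. The stronger Pax5 region had folds of 4.28 and 4.77 in the knockout lists and 3.33 and 4.02 in the C442G lists and no peak in the C313Y set, and the part of other cells in the gains was not tested beyond these counts. Within 1 kb of gained regions lay 6 microRNA genes, Mir8112, Mir6396, Mir6413, Mir153, Mir6974 and Mir698, and the Mir153 region was 1 of the 6 in Ptprn2.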

How the data were processed

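Each library had its own peak list, made on mm10 with MACS2, Bowtie2, Picard and cutadapt among the tools, per the submitters' processing notes, which give no versions. For 8 libraries the authors deposited broad peaks with a score, a fold enrichment (a ratio to local background), −log10 p and −log10 q, as the values show. The score is −log10 q multiplied by 10 and rounded down in the authors' lists, except for 1 to 6 peaks in each. The 4 lists of the C313Y set that the authors deposited hold positions only, so strength and calling threshold there are unknown. Folds and ranks were used within 1 list. For read handling, control libraries and depth, the sources used here give nothing.

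With Python 3.11.15, pandas 2.3.3 and scipy 1.17.1, peaks on chromosomes 1 to 19 of all 12 lists were merged where they overlapped by at least 1 bp. Gained means a peak in both mutants and neither own wild type, and lost the reverse. Genes and promoter windows came from RefSeq for GRCm38.p6, the assembly whose coordinates mm10 uses. The gene table has no strand, so either gene end counted, with a 1 kb window. Chromosome 18, which held 62 of the 1945 regions, was not in the promoter table used here. Off that chromosome, the table had a start for 81.7% of protein-coding genes. Regions at starts absent from the table could not be counted as reaching a promoter window. The planned motif search over all members needed a genome and was limited to promoter windows. Samples were compared by exact permutation tests. Members and gene lists were chosen with earlier results of these data known.

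Genes named were the nearest to the 20 strongest regions, the 5 widest, the 10 genes with most regions, up to 4 per list, the 5 strongest near gene ends and the 5 strongest over 200 kb from genes. The 5 strongest gained with C313Y, the 5 strongest in both C313Y-set wild types and those at the edge of the rule were also named. One gene this rule selected is not reported here. Region counting was tested on simulated lists. The settings varied were the threshold (−log10 q of 3 or more), equal list lengths, other merging and overlap rules, 500 bp windows, other gene windows and gene sets, all 6 wild types, and each replicate left out.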

Additional observations from a re-analysis of the deposited data

Results flagged for a closer look

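On chromosome X, which the counts above leave out, 41 of 5776 regions (0.710%) had a peak in both knockout and both C442G libraries and in none of their 4 wild types, and 0 met the reverse rule. These regions were noted because they lie in data outside the main measurement, and no further comparison was made with them. Groups of 2 libraries are too small for a search for single outlying libraries.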

How the results depend on the processing

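The number of regions depended most on the threshold and on list length. It was 773 with a −log10 q of at least 3 (108 of them among the 1945), 68 with equal lengths within contrasts, 180 with 1 length for all 8 lists, and 1999 to 4300 with each library left out. It was 4300 and 3115 without knockout replicates 1 and 2, and 3729 and 4057 without C442G-set wild-type replicates 1 and 2. Leaving out a library removes 1 condition of the rule, so the count can only rise, by the regions that failed on that library alone. Why some libraries added more regions than others was not tested. Regions merged from 8 lists, 500 bp windows, a cover of 50 percent and all 6 wild types as controls gave 1347 to 2715.

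With a −log10 q of at least 3, 7.89% lay near gene ends and 36.4% between genes, with a median width of 0.313 kb, a median percentile of 30.4 and 7 lost with C313Y. With equal lengths these were 2.94% near ends, 60.3% inside, 36.8% between genes and 0.182 kb, with 7 gained and 0 lost. The share near gene ends was 4.08% with 6 wild types, 3.44% with a 500 bp window and 9.46% with 2500 bp (52.1% inside). With all genes of the annotation the shares were 9.2%, 59.8% and 31.0%. Leaving out each C313Y-set library gave 135 to 407 gained and 14 to 102 lost with C313Y. Each omission relaxes the rule, so neither count can fall. Without heterozygote replicate 2 there were 202 gained and 23 lost, and without replicate 3, 407 and 14. Without wild-type replicate 1 there were 145 and 58, and without replicate 2, 135 and 102.

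The excess in C313Y heterozygotes kept its direction in the 9 alternatives run, at 5.84 to 26.3 percentage points and at 0.247 to 4.73 per 1000 regions. Replicate numbers did not pair the samples (correlations of 0.0036 and 0.0041). With the knockout and C442G contrasts as blocks, the difference of 43.9 points had an exact sign-flip permutation p of 0.5, the smallest this allows. The C313Y groups share only 1 replicate number, so no paired fit was possible there. Of 83 regions named or listed, those at Cylc2, Elavl4, Lyn and Rybp met the rule in all 15 settings. Settings that left out 1 library only relax the rule, so every region met it there by construction. Of the 85 gene labels of these regions, 31 remained at a −log10 q of at least 3. With equal lengths within contrasts 23 remained, and with 1 length for all 8 lists 6.

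Unknown depth, 2 libraries per group and lists without heights in the C313Y set limit every statement here.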
